A study of Mus musculus with 12 samples.

Results

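The circadian clock genes of C2C12 myotubes were compared between cells exposed to BAM15 and cells exposed to vehicle. Members were the 10 genes of the count table whose symbol was Arntl, Clock, Per1, Per2, Per3, Cry1, Cry2, Nr1d1, Nr1d2 or Dbp, out of 15113 genes in all. C2C12 cells are mouse myoblasts kept as a line and form myotubes after serum withdrawal, and BAM15 is a small molecule that uncouples mitochondrial respiration. Fully differentiated myotubes received 20 μM BAM15 dissolved in DMSO or DMSO vehicle alone for 16 h, and 6 libraries were sequenced per condition. All libraries came from this 1 cell line, and because no label ties them to separate cultures, p-values measure the spread between libraries, which may be technical. RNA was collected at 1 time after treatment, so that a change in the level of a rhythmic transcript and a shift in its phase cannot be told apart.

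The mammalian clock is a transcriptional feedback loop found in most cells, skeletal muscle included. CLOCK and ARNTL (also called BMAL1) form a heterodimer that binds E-box sequences and activates the period and cryptochrome genes, whose products return to the nucleus and repress the heterodimer. In a second loop the nuclear receptors REV-ERBα and REV-ERBβ, encoded by Nr1d1 and Nr1d2, repress Arntl through ROR response elements, and ROR receptors activate it there. Dbp encodes a transcription factor that is driven by E-boxes and passes the rhythm to D-box genes.

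BAM15 was followed by higher transcript levels of 6 of the 10 clock genes, and none was lower by the test. The increases were 5.48-fold for Per1, 4.97-fold for Nr1d1, 3.00-fold for Dbp, 2.50-fold for Cry2, 1.53-fold for Nr1d2 and 1.502-fold for Cry1. Arntl, Clock, Per2 and Per3 did not pass the test. All 10 genes passed the filter on low counts. The conditions were compared over 12730 genes by the quasi-likelihood test of edgeR, p-values were adjusted by the Benjamini-Hochberg (BH) method, and a gene was called at an adjusted p-value below 0.01. By that rule 22.0% of all tested genes were higher and 20.3% were lower, so that 42.3% were called in either direction. The methods of the study also required a mean over all libraries (base mean) above 50 and a fold change above 2 in either direction, and 4 clock genes passed these 3 thresholds, all higher (Per1, Nr1d1, Dbp and Cry2). Of all tested genes, 7.28% passed them, 3.70% higher and 3.58% lower. In 6 clock genes every BAM15 library lay above every vehicle library, and in 0 below, whereas the groups were separate in 34.2% of all tested genes, 17.1% higher and 17.0% lower. The median log2 fold change of the 10 genes was 0.60, beside 0.02 for all tested genes.

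**Figure D1:**
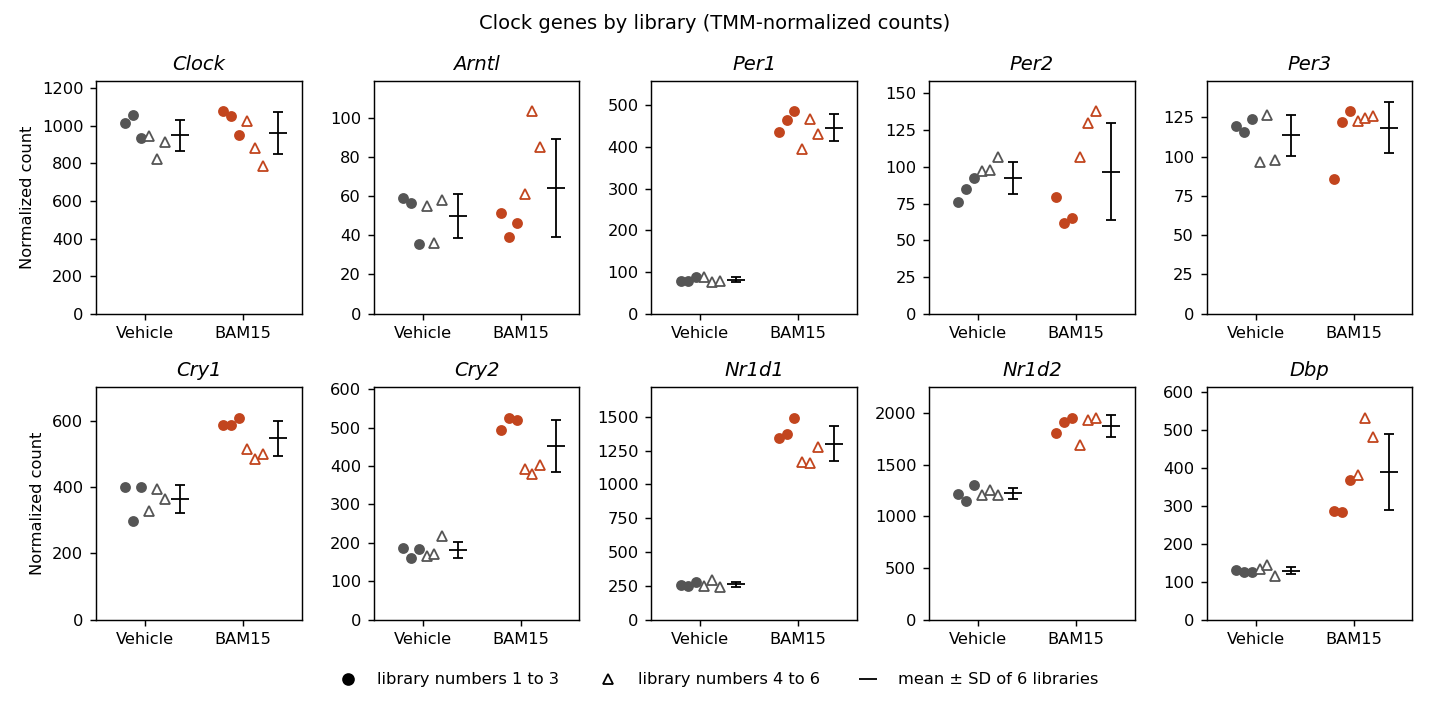
TMM-normalized counts (vertical axes, starting at 0) of the 10 clock genes in the 6 vehicle and 6 BAM15 libraries. Filled circles are libraries numbered 1 to 3, open triangles those numbered 4 to 6, and black bars show the mean ± SD of 6 libraries. For Per1, Nr1d1, Dbp, Cry2, Nr1d2 and Cry1 every BAM15 library lies above every vehicle library, and for Arntl and Per2 the BAM15 libraries numbered 4 to 6 lie above those numbered 1 to 3.

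Total counts ranged from 15299135 to 18866728 per vehicle library and from 13983725 to 18751780 per BAM15 library. Reads assigned to the 10 clock genes summed to 201 to 216 CPM (reads scaled to a common library total) with vehicle and 339 to 378 CPM after BAM15. In a principal component analysis of log2 CPM, component 1 held 65.7% of the variance and separated the conditions, and component 2 (17.0%) set the BAM15 libraries numbered 1 to 3 apart from those numbered 4 to 6. The labels name no batch. Log2 fold changes within each set of numbers are given for the clock genes, the neighbors at their 3′ ends and the called clock factors named with values. All 12 myotube markers examined, among them Myog, Myh3, Acta1 and Ckm, passed the filter. Beside 22.0% higher and 20.3% lower among all tested genes, 2 markers (Acta1 and Myog) were higher and 2 (Ckm and Mymk) were lower. The median log2 fold change of the 12 was −0.13. Their summed normalized counts, of which Acta1 held 127952 on average with vehicle and 175768 after BAM15, were 422666 to 478256 with vehicle and 386105 to 526140 after BAM15. Of 10 markers of undifferentiated or cycling myoblasts, 7 were lower and 1 (Myf5) was higher, beside 20.3% and 22.0% of all tested genes. Id1 and Id3 did not pass. The summed normalized counts of the 10 fell from 11176 to 12132 per vehicle library to 5804 to 6141 per BAM15 library. Of these sums, Cdh15 held 4367 on average with vehicle and 2460 after BAM15, and Top2a held 3241 and 1175. The part of these markers in the clock results was not tested. Fewer cells of a type and less RNA per cell cannot be told apart in these bulk samples.

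The period genes encode the proteins that, with the cryptochromes, repress CLOCK and ARNTL. Per1 (ENSMUSG00000020893, GRCm38, chromosome 11, 69095217 to 69109960) had 76.3 to 88.9 normalized counts with vehicle (median 78.2) and 394 to 485 after BAM15 (median 451). The groups did not overlap. Its log2 fold change was 2.46 (standard error, here SE, 0.08, BH-adjusted p = 2.04e-12 in edgeR, higher in 6 of 6 BAM15 libraries), the largest log2 fold change of the 10. The change was 2.49 within library numbers 1 to 3 and 2.40 within numbers 4 to 6.

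Per2 (ENSMUSG00000055866, chromosome 1, 91415982 to 91459324) had 75.7 to 107 normalized counts with vehicle (median 95.1) and 61.6 to 138 after BAM15 (median 93.2). The groups overlapped, and the log2 fold change of 0.06 did not pass (SE 0.19, BH-adjusted p = 0.811 in edgeR). The BAM15 libraries lay in separate ranges, 61.6 to 79.6 for numbers 1 to 3 and 107 to 138 for numbers 4 to 6. The fitted change was −0.30 within the former (adjusted p = 0.155) and 0.30 within the latter (adjusted p = 0.146), and neither passed. Per3 (ENSMUSG00000028957, chromosome 4, 151003652 to 151044665) had 96.3 to 127 normalized counts with vehicle (median 118) and 85.4 to 129 after BAM15 (median 124). It did not pass either, with a log2 fold change of 0.06 (SE 0.12, BH-adjusted p = 0.691 in edgeR), −0.10 within numbers 1 to 3 and 0.21 within numbers 4 to 6.

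The make-up of the period reads within a library also differed. Per1 held 25.3% to 31.4% of the reads of Per1, Per2 and Per3 with vehicle and 62.0% to 72.6% after BAM15. Per3 was the most counted period gene in 4 vehicle libraries and Per2 in the other 2, whereas Per1 was in all 6 BAM15 libraries. The summed normalized counts of the 3 genes were 273 to 306 with vehicle (mean 287) and 602 to 720 after BAM15 (mean 661). QuantSeq reads come from the 3′ end of a transcript, so these counts do not scale with transcript length, and shares were compared on the count scale without a correction for length.

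The cryptochromes bind the CLOCK and ARNTL heterodimer and are its strongest repressors. Cry1 (ENSMUSG00000020038, chromosome 10, 85131700 to 85185064) had 299 to 401 normalized counts with vehicle (median 378) and 483 to 609 after BAM15 (median 551). Its log2 fold change was 0.59 (SE 0.09, BH-adjusted p = 5.63e-05 in edgeR, higher in 6 of 6), under 2-fold. Cry2 (ENSMUSG00000068742, chromosome 2, 92403646 to 92434043) had 161 to 218 normalized counts with vehicle (median 178) and 380 to 526 after BAM15 (median 449). It rose by a log2 fold change of 1.32 (SE 0.11, BH-adjusted p = 6.97e-08 in edgeR, higher in 6 of 6). The groups did not overlap for either gene. Both genes had higher counts in BAM15 libraries 1 to 3 than in 4 to 6, without overlap, and the log2 fold changes of Cry2 were 1.53 and 1.07 and those of Cry1 0.69 and 0.46 within these numbers, each past an adjusted p of 0.01.

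Cry1 held the larger part of the cryptochrome reads in all 12 libraries. The ratio of Cry2 to Cry1 counts was 0.437 to 0.601 with vehicle and 0.762 to 0.899 after BAM15, and these ranges did not overlap.

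The REV-ERB receptors are heme-binding repressors that join the clock to lipid and glucose metabolism. Nr1d1 (ENSMUSG00000020889, chromosome 11, 98767932 to 98775333) had 240 to 292 normalized counts with vehicle (median 256) and 1161 to 1494 after BAM15 (median 1310). Its log2 fold change was 2.31 (SE 0.08, BH-adjusted p = 3.49e-12 in edgeR, higher in 6 of 6), and it was 2.41 within numbers 1 to 3 and 2.19 within numbers 4 to 6. Nr1d2 (ENSMUSG00000021775, chromosome 14, 18204054 to 18239127) had 1143 to 1307 normalized counts with vehicle (median 1212) and 1690 to 1955 after BAM15 (median 1925). This was a log2 fold change of 0.62 (SE 0.05, BH-adjusted p = 1.45e-07 in edgeR, higher in 6 of 6), under 2-fold, and it was 0.63 and 0.60 within these numbers. Neither gene's groups overlapped. Nr1d2 had the highest count of the 10 genes in both conditions, and the ratio of Nr1d1 to Nr1d2 counts was 0.199 to 0.233 with vehicle and 0.600 to 0.764 after BAM15.

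**Figure D2:**
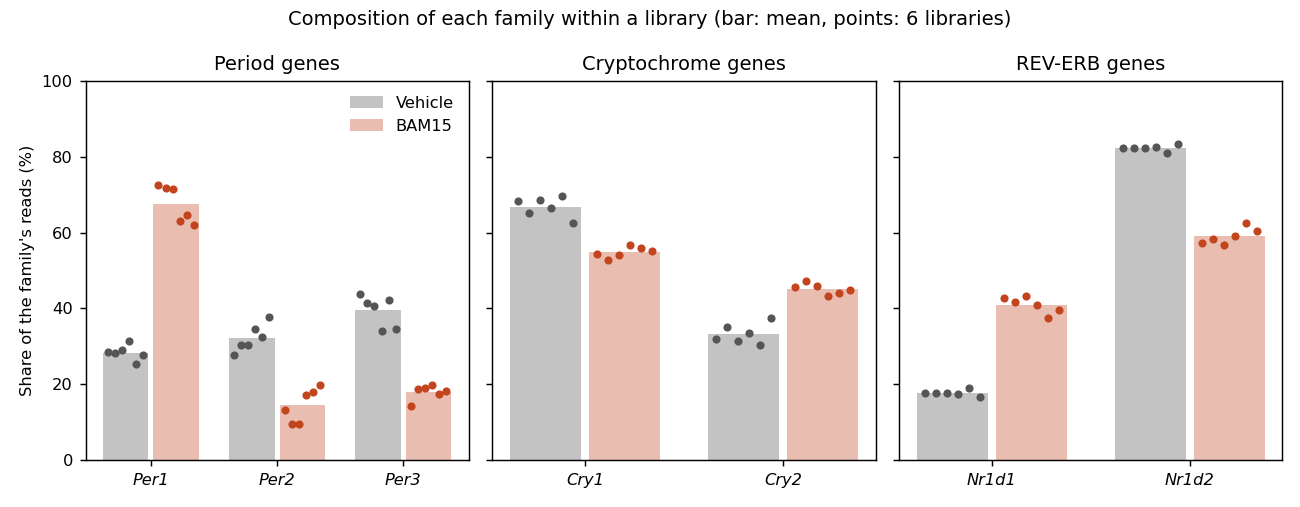
Share (%, vertical axis) of each gene in the reads of its family within a library, for the period, cryptochrome and REV-ERB genes. Bars are means and points are the 6 vehicle (grey) and 6 BAM15 (red) libraries. Per1, Cry2 and Nr1d1 hold a larger share in every BAM15 library than in any vehicle library, as for Per1 with 62.0% to 72.6% against 25.3% to 31.4%.

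Dbp (ENSMUSG00000059824, chromosome 7, 45705088 to 45710203) had 117 to 145 normalized counts with vehicle (median 128) and 285 to 533 after BAM15 (median 375). The groups did not overlap, and the log2 fold change was 1.59 (SE 0.15, BH-adjusted p = 3.54e-07 in edgeR, higher in 6 of 6). Unlike the vehicle libraries, which had a coefficient of variation of 7.46%, the BAM15 libraries varied by 25.9%. They held 285 to 369 normalized counts in numbers 1 to 3 and 381 to 533 in numbers 4 to 6, and the log2 fold changes within these numbers were 1.30 and 1.81.

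For Nr1d1 and Dbp, reads of a neighbor on the opposite strand could enter the count, because the strand used for counting is not given in the sources used here. Exons of Thra, which encodes thyroid hormone receptor alpha, cover 175 of the last 400 bases of the Nr1d1 transcript, and exons of Sphk2, which encodes sphingosine kinase, cover all 400 for Dbp. No other clock gene had an annotated exon of another gene there, and none shared a 50-base stretch with another gene on its own strand. Thra had 1841 ± 128 normalized counts with vehicle and 3422 ± 377 after BAM15 (SD, n = 6), a log2 fold change of 0.89 (SE 0.07, BH-adjusted p = 1.04e-07 in edgeR). Sphk2 rose from 543 ± 38.8 to 1031 ± 146, a log2 fold change of 0.93 (SE 0.09, BH-adjusted p = 5.77e-07 in edgeR). Both were higher in BAM15 libraries 1 to 3 than in 4 to 6 without overlap, with log2 fold changes of 1.02 and 0.74 for Thra and 1.11 and 0.71 for Sphk2 within these numbers. The ratio of Nr1d1 to Thra counts was 0.137 to 0.154 with vehicle and 0.357 to 0.400 after BAM15, without overlap. For Dbp the ratio to Sphk2 was 0.221 to 0.250 with vehicle and 0.244 to 0.663 after BAM15, and these ranges overlapped. How many reads of either neighbor entered the counts was not tested.

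CLOCK and ARNTL are the activating arm. Clock (ENSMUSG00000029238, chromosome 5, 76209868 to 76304792) had 822 to 1060 normalized counts with vehicle (median 941) and 784 to 1078 after BAM15 (median 988), with a log2 fold change of 0.02 (SE 0.08, BH-adjusted p = 0.851 in edgeR), 0.03 within numbers 1 to 3 and −0.0031 within numbers 4 to 6. Arntl (ENSMUSG00000055116, chromosome 7, 113207465 to 113314126) was the lowest of the 10, with 35.4 to 59.0 normalized counts with vehicle (median 55.8) and 38.9 to 103 after BAM15 (median 56.2). Its log2 fold change of 0.36 did not pass (SE 0.24, BH-adjusted p = 0.213 in edgeR). As for Per2, the BAM15 libraries of Arntl lay in separate ranges, 38.9 to 51.5 in numbers 1 to 3 and 60.9 to 103 in numbers 4 to 6. Within these numbers the fitted change was −0.14 (adjusted p = 0.615) and 0.73 (adjusted p = 0.0262), and neither passed 0.01.

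**Figure D3:**
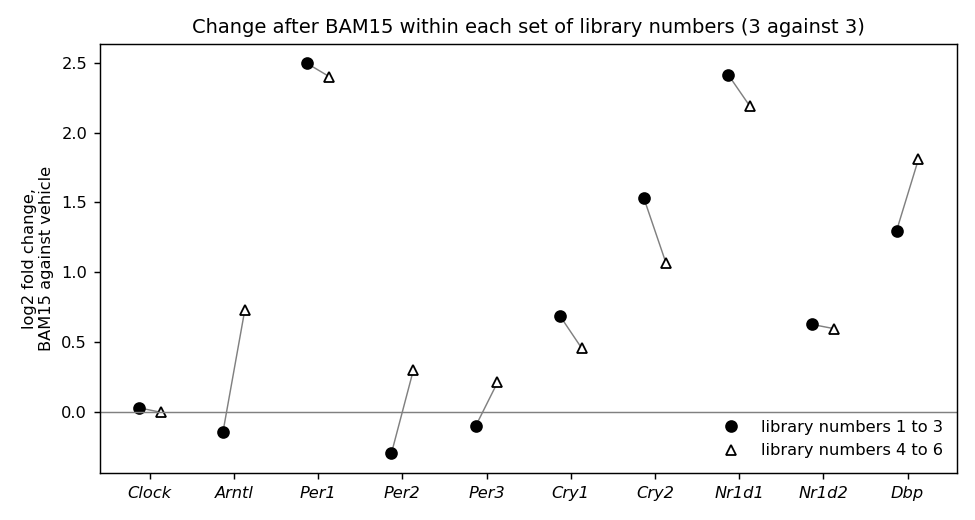
Log2 fold change of each clock gene, BAM15 against vehicle (vertical axis), fitted within libraries numbered 1 to 3 (filled circles) and 4 to 6 (open triangles), 3 libraries per condition. The 6 called genes are above 0 in both sets, between 0.46 and 2.49, whereas Arntl, Per2 and Per3 are below 0 in the first set and above 0 in the second.

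Ordered by mean normalized count, the vehicle libraries held Nr1d2, Clock, Cry1, Nr1d1, Cry2, Dbp, Per3, Per2, Per1 and Arntl. The ranges of neighboring genes overlapped from Dbp to Per1 and were separate elsewhere in this order. After BAM15 Nr1d1 stood second and Per1 sixth, and the ranges of neighbors overlapped among Cry1, Cry2, Per1 and Dbp and among Per3, Per2 and Arntl.

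The 250 bases before the annotated start were read for 9 clock genes from RefSeq sequences of GRCm38.p6 and searched on both strands for the E-box CACGTG, the related CACGTT, the D-box TTATGTAA and its variant TTACGTAA, the ROR element core AGGTCA, the cyclic AMP response element TGACGTCA and the ATF4 element TGATGCAA. Per2 was not among them. Stretches of the called genes that held a match are shown with the matching letters in capitals, 5′ to 3′ on the strand of the gene, together with the D-boxes of Per3 as a gene that did not pass. None of these stretches lies in an annotated exon of that strand. That of Per1 precedes the RefSeq start and lies within the longer GENCODE gene given above.
Per1, chr11:69098758-69098842 (+), E-box and reverse AGGTCA: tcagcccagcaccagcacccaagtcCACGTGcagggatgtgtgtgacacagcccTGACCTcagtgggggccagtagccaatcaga
Cry1, chr10:85185084-85185158 (−), reverse CACGTT and E-box: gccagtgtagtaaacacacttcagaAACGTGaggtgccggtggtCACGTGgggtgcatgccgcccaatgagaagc
Cry2, chr2:92434205-92434260 (−), reverse CACGTT: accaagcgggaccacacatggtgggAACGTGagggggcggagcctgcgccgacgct
Nr1d1, chr11:98775378-98775430 (−), reverse CACGTT: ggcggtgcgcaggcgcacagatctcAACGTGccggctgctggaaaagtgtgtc
Nr1d2, chr14:18239153-18239208 (−), AGGTCA: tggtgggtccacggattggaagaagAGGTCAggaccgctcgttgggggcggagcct
Per3, chr4:151044791-151044895 (−), D-boxes: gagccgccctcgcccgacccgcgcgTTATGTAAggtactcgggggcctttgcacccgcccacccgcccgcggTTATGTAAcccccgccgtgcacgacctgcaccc

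Of the 9 genes, 2 (Per1 and Cry1) held CACGTG before a start, as did 6.86% of all 27025 genes of the table and 6.02% of its 32851 windows, since a gene may have several starts. CACGTT stood before 3 (Cry1, Cry2 and Nr1d1), and before 4.50% of genes and in 3.85% of windows. TTATGTAA stood before Per3 at 2 places, and before 0.977% of genes and in 0.819% of windows. AGGTCA stood before Per1, Nr1d2 and 1 of the 3 starts of Clock, and before 15.8% of genes and in 14.0% of windows. The other 3 motifs were found before none of the 9 genes and before 0.118% (TTACGTAA), 1.77% (TGACGTCA) and 0.918% (TGATGCAA) of all genes. These matches describe the letters in a short window only, and for Dbp and Arntl no match was found in it.

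Beyond these 10 genes, 12 further factors of the clock loops were listed, and 9 passed the filter on low counts. Of these, 4 were higher and 1 was lower at an adjusted p below 0.01, beside 22.0% and 20.3% of all tested genes. By the 3 thresholds 3 were higher, beside 3.70% of all tested genes. Ciart, which encodes a repressor of CLOCK and ARNTL, had 6.69 to 24.9 normalized counts with vehicle and 86.4 to 180 after BAM15, a log2 fold change of 3.33 (SE 0.29, BH-adjusted p = 1.54e-07 in edgeR). In BAM15 libraries 1 to 3 it held 86.4 to 114 normalized counts and in 4 to 6 169 to 180. Nfil3, a repressor of D-box genes that competes with DBP, rose from 425 ± 20.9 to 1331 ± 187 (log2 fold change 1.65, adjusted p = 6.30e-10), and Rora, an activator of Arntl, from 296 ± 23.6 to 734 ± 120 (log2 fold change 1.31, BH-adjusted p = 5.98e-08 in edgeR, SD, n = 6). As for 17.1% of all tested genes, every BAM15 library lay above every vehicle library for these 3 genes. Their BAM15 libraries 1 to 3 and 4 to 6 did not overlap, and the log2 fold changes within these numbers were 3.14 and 3.45 for Ciart, 1.80 and 1.46 for Nfil3 and 1.52 and 1.06 for Rora. Rorb fell from 122 ± 20.4 to 76.0 ± 15.0, a log2 fold change of −0.69 (BH-adjusted p = 1.29e-03 in edgeR). Within numbers 1 to 3 its log2 fold change was −0.65 (BH-adjusted p = 0.00322 in edgeR) and within numbers 4 to 6 −0.74 (0.0109), which did not pass 0.01. Tef, a relative of Dbp, had a log2 fold change of −0.04 (BH-adjusted p = 0.676 in edgeR) and did not pass.

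When genes were grouped by the element that is known to drive them, 7 of 11 E-box genes (Per1, Per2, Per3, Cry2, Nr1d1, Nr1d2, Dbp, Tef, Ciart, Bhlhe40 and Bhlhe41) were higher, with a median log2 fold change of 0.62. Of 4 tested genes under ROR elements (Arntl, Clock, Npas2 and Nfil3), only Nfil3 passed, and the median was 0.19. Of all tested genes 22.0% were higher, with a median of 0.02. Genes were grouped by what is known of them, with earlier results of these data known, and not by the letters found in the windows above. Cry1, which is known to answer to both kinds of element, was placed in neither group. A gene placed in either group may also answer to the other element. Of the E-box genes that were higher, Per1, Cry2, Nr1d1, Nr1d2 and Dbp are clock genes already given above. The part of either element in these changes was not tested.

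**Figure D4:**
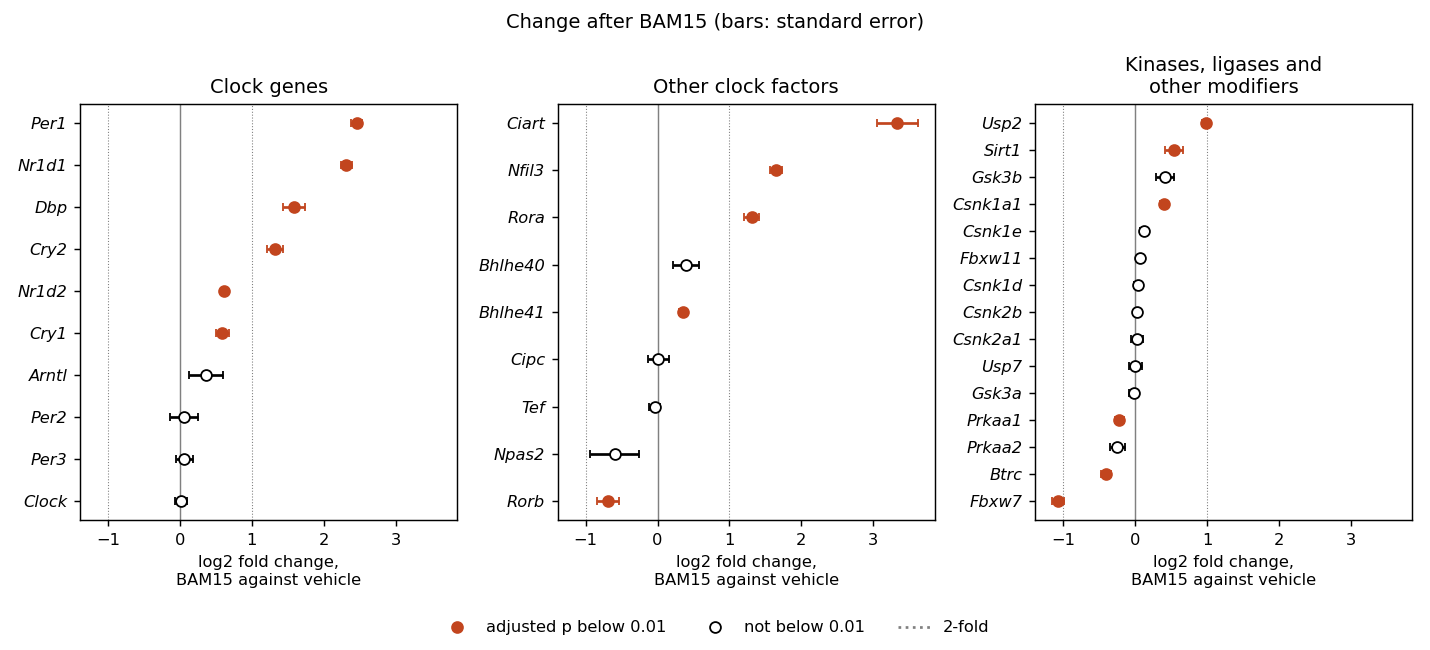
Log2 fold change (horizontal axis, BAM15 against vehicle) with its standard error for the 10 clock genes, 9 further clock factors and genes whose products modify clock proteins. Red points have an adjusted p below 0.01, open points do not, and dotted lines mark 2-fold. Ciart has the largest increase at 3.33, Per1 and Nr1d1 follow, and most genes of the third panel lie within 2-fold.

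Of 16 tested genes for enzymes that modify or degrade clock proteins, 3 were higher and 3 lower, beside 42.3% called among all tested genes. Alternatives gave 5 to 7 called modifiers, too few genes to tell their share from 42.3%. The modifiers had a median of 0.04 on the log2 fold scale. Fbxw7, a ubiquitin ligase subunit that targets REV-ERBα, fell from 3352 ± 239 to 1597 ± 208 normalized counts (log2 fold change −1.07, SE 0.08, BH-adjusted p = 3.13e-08 in edgeR, lower in 6 of 6 libraries), and it was the only one past the 3 thresholds. Usp2, a deubiquitinase with a rhythmic transcript, rose from 856 ± 45.9 to 1694 ± 120 (log2 fold change 0.99, SE 0.06, BH-adjusted p = 2.56e-09 in edgeR), just under 2-fold. Of the casein kinase 1 genes, whose products phosphorylate PER proteins, Csnk1a1 was higher (log2 fold change 0.40, SE 0.06, BH-adjusted p = 3.57e-05 in edgeR, higher in 6 of 6), under 2-fold. Csnk1d and Csnk1e had log2 fold changes of 0.04 (adjusted p = 0.532) and 0.12 (BH-adjusted p = 0.0377 in edgeR), and neither passed 0.01.

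Among 11 cofactors of clock proteins 1 passed, beside 42.3% of all tested genes. Sfpq, an RNA- and DNA-binding partner of PER complexes, fell from 3341 ± 118 to 2019 ± 169 normalized counts (log2 fold change −0.73, adjusted p = 7.78e-08), and the highest value was that of Wdr5 (0.30, BH-adjusted p = 0.318 in edgeR). The REV-ERB corepressor genes Ncor1 and Hdac3 had log2 fold changes of 0.13 and −0.11 and did not pass. Without BAM15 library 5, or without BAM15 library 6, 2 cofactors passed.

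Genes through which hormones, cyclic AMP and serum reach the clock were listed as inputs. Of 21 tested, 6 were higher and 2 lower, beside 22.0% and 20.3% of all tested genes. Log2 fold changes had a median of 0.24, and 13 inputs passed without BAM15 library 2. Atf4, a stress-induced bZIP factor, rose from 9573 ± 706 to 41062 ± 6960 normalized counts (log2 fold change 2.10, adjusted p = 2.97e-10), Fos from 38.1 ± 8.38 to 126 ± 16.6 (1.72, adjusted p = 1.26e-07) and Klf9, a glucocorticoid-responsive and rhythmic repressor, from 2931 ± 232 to 6420 ± 817 (1.13, BH-adjusted p = 2.73e-08 in edgeR). These 3 passed the 3 thresholds. Of other glucocorticoid-responsive genes, Sgk1 was higher (0.90, adjusted p = 7.32e-07) whereas Fkbp5 had −0.22 (adjusted p = 0.287) and Tsc22d3 0.19 (BH-adjusted p = 0.0363 in edgeR). Mrtfb, a serum-responsive coactivator, fell by 0.72 on the log2 scale (BH-adjusted p = 5.88e-06 in edgeR).

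Of 14 genes known as clock outputs, 4 were higher and 3 lower, near the 22.0% and 20.3% of all tested genes, with a median log2 fold change of 0.06. By the 3 thresholds Vegfa (1.69, adjusted p = 3.07e-09) and Dgat2 (1.25, adjusted p = 1.43e-06) were higher, and Ccnd1 (−1.42, adjusted p = 1.26e-09) and Myod1 (−1.03, adjusted p = 6.48e-09) were lower on the log2 fold scale (BH adjustment in edgeR). Myc had the highest log2 fold change of the list, 2.45 (BH-adjusted p = 2.38e-05 in edgeR), at a base mean of 46.7 that is under the threshold of 50. The called genes named from the modifiers, cofactors, inputs and outputs kept their direction and passed an adjusted p of 0.01 within numbers 1 to 3 and within numbers 4 to 6.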

How the data were processed

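RNA of 12 C2C12 libraries (6 BAM15, 6 vehicle) was analysed. The authors prepared QuantSeq 3′ libraries and used BlueBee software for the alignment. Raw counts, integer reads for each Ensembl gene, were deposited by the authors. The submitters' processing notes name GRCm38, mm10 and DESeq2 1.22.2. The aligner, annotation and counting strand are not given in the sources used here. The deposited normalized signal holds those counts over a size factor of each library (0.836 to 1.07) and supplied only gene symbols here. A further 11 columns match the labels of no sample analysed here and were not used.

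Counts were filtered with filterByExpr (12730 of 15113 genes kept), scaled by TMM and compared with edgeR 4.0.16 (quasi-likelihood, robust, condition as the only term) in R 4.3.3. P-values were adjusted over all tested genes. Normalized counts are counts divided by the effective library size, times its mean. The standard error is the log2 fold change divided by the square root of F. Alternatives were DESeq2 1.42.0, limma-voom (limma 3.58.1), other scalings and filters, blocks for library numbers, subsets of libraries and other thresholds. The procedure was tested on simulated data with known changes. No library was a copy of another: in a chi-square test of counts, the statistic per gene was 4.72 to 23.7 in 15 vehicle pairs and 6.14 to 78.4 in 15 BAM15 pairs, above counting noise. Equal library numbers did not pair the samples.

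Positions are from GENCODE M21 (GRCm38). The last 400 bases were taken from the principal protein-coding transcript. Promoter windows are RefSeq sequences. The clock genes and all lists were chosen from general knowledge with earlier results of these data known. Named genes are all clock genes, and in each other list those past the 3 thresholds and those with the highest and lowest log2 fold change, the opposite-strand neighbors at the 3′ ends, and the 5 genes closest to the clock gene with the highest and to that with the lowest log2 fold change. A few further list members named in the text (Tef, Csnk1a1, Csnk1d, Csnk1e, Ncor1, Hdac3, Sgk1, Fkbp5, Tsc22d3 and the named markers) were chosen after their values were seen. The listed input gene Crtc2 was not analysed here, and a few list members that the rule would name are not reported here. Figures were drawn with matplotlib 3.10.9.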

Additional observations from a re-analysis of the deposited data

Results flagged for a closer look

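In the 6 BAM15 libraries, Per3 had 85.4 normalized counts in library 1, and the nearest of the other 5 libraries had 122. The gap was 0.845 of the range of the group, above the critical value of Dixon's test for 6 samples. Such a value was looked for in 20 groups (10 genes in 2 conditions), and chance gives about 1 in 20. Without this library the log2 fold change of Per3 was 0.14 in place of 0.06 (BH-adjusted p = 0.264 in edgeR), and it still did not pass.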

How the results depend on the processing

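The number of clock genes past an adjusted p of 0.01 was 6, and past the 3 thresholds 4, under every alternative run, with 6 to 6 and 4 to 4 when each of the 12 libraries was left out in turn. The 6 called genes kept their direction and their call in all 24 alternatives, with log2 fold changes of 2.39 to 2.49 (Per1), 2.19 to 2.41 (Nr1d1), 1.30 to 1.81 (Dbp), 1.07 to 1.53 (Cry2), 0.56 to 0.65 (Nr1d2) and 0.46 to 0.69 (Cry1). All alternatives used the same deposited counts, so none bears on reads of Sphk2 and Thra that may enter those of Dbp and Nr1d1. The sign of the clock genes that were not called depended on the setting. With library numbers 1 to 3 only, Arntl was at −0.14, Per2 at −0.30 and Per3 at −0.10. Per2 was also below 0 with limma-voom (−0.0058). Clock was below 0 when scaled by library size only (−0.045) and with library numbers 4 to 6 only (−0.0031). Leaving out 1 library gave −0.020 to 0.073 for Clock and −0.063 to 0.16 for Per2, which was below 0 without BAM15 library 5 or 6, as Clock was without BAM15 library 1 or 2 or vehicle library 5. The cause was not tested. With a replicate block for the library number, 6 and 4 clock genes passed. Equal numbers did not pair the libraries, since the correlation of their deviations was −0.076 to 0.311. The best match was vehicle library 3 for each of BAM15 libraries 1 to 3 and vehicle library 6 for each of 4 to 6. A block for numbers 1 to 3 against 4 to 6 gave 13 clock inputs in place of 8 and 2 cofactors in place of 1. Cofactors numbered 4 within numbers 1 to 3 and 2 within numbers 4 to 6. With 1 library left out, the lists gave 1 to 2 cofactors, 8 to 13 inputs, 7 to 9 outputs, 5 to 7 modifiers and 5 to 6 further clock factors. Alternatives for these lists were added after the data were seen. Arntl had the lowest base mean of the clock genes, 57.1. Its coefficient of variation was 22.2% with vehicle and 38.8% after BAM15. Per2, with a base mean of 94.6, had 11.7% and 34.0%. The part of depth in these spreads was not tested.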

Other observations

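Genes of the clock loops that were too low to test were named after their counts were seen. Hlf, a relative of Dbp, had 1 to 11 raw counts per vehicle library and 5 to 22 per BAM15 library, Arntl2, a relative of Arntl, 0 to 6 and 4 to 12, and Fbxl21, a ubiquitin ligase subunit that targets cryptochromes, 0 to 9 and 4 to 14. These counts allow no firm fold change.

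The genes whose values over the 12 libraries were closest to those of Per1 were Ifrd1, Asns, Pycr1, 2410006H16Rik and Slc16a6, by the root mean square distance of log2 CPM centred on the vehicle mean (0.09 for Ifrd1 and 0.14 for Slc16a6, among 10470 genes with a base mean above 50). Asns and Pycr1 encode enzymes of asparagine and proline synthesis. Those closest to Clock were Rbm22, Ptp4a2, Nfic, Smim15 and Calm2, at distances near 0.06, and their log2 fold changes lay between −0.01 and 0.07. This likeness is a description and says nothing of shared control.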
